A study of Mus musculus with 3 samples.

Results

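The hypoxia-inducible genes described here are 10 genes of the response to low oxygen: Hif1a, Vegfa, Adm, Egln1, Egln3, Bnip3, P4ha1, P4ha2, Ndrg1 and Ankrd37. They were found as the probes whose gene name in the scanner files equals one of these symbols, which gave 16 of the 39429 probes that are not controls. All 16 passed the filter on dim probes, and 14 of them were well above background in both dyes on all 3 arrays. Hippocampal RNA came from male mice killed at postnatal day 120. They were born to mothers bred at 15 to 18 months (the older-mother group) or at 3 months (the young-mother group, the control), by males aged 3 months in either case. A sample pooled equal amounts of RNA from 3 males, with 3 pools on each side of the comparison. On every array an older-mother pool was labelled with the dye Cy3 and set against a young-mother pool in Cy5, so a difference between the dyes and a difference between the groups cannot be told apart. The labels give neither a strain nor the litters behind a pool, and p-values measure only the spread between these arrays. A lower signal from fewer cells of a type and from less RNA per cell cannot be told apart in such bulk samples.

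Cells answer low oxygen through HIF-1, a transcription factor made of the oxygen-controlled subunit HIF-1α (gene Hif1a) and a stable partner. With oxygen present, the prolyl hydroxylases encoded by Egln1 and Egln3 mark HIF-1α for breakdown through the von Hippel-Lindau protein, and Egln3 is itself a HIF target, which closes a feedback loop. When the mark is not set, HIF-1 binds short DNA elements and raises genes of blood vessel growth (Vegfa), vessel dilation (Adm), mitochondrial removal (Bnip3), collagen folding (P4ha1, P4ha2) and further stress genes (Ndrg1, Ankrd37). Several of these genes also answer other stimuli, among them hormones and growth factors.

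HIF binds DNA at a short core element, ACGTG or GCGTG, and promoters are shown for 2 members whose signal was higher in the older-mother pools (P4ha1, P4ha2) and for 2 that did not pass the test (Bnip3, Egln1). The sequences are RefSeq's for the build GRCm38.p6 and hold 150 bases upstream of the gene, 5′ to 3′ on the strand of the gene, with each core element on either strand in capitals. The P4ha1 stretch ends 100 bases before the listed start, because other P4ha1 transcripts begin in between. The 150 bases upstream of Egln3 and of Vegfa, which also did not pass the test, held no core element and are not shown.
P4ha1, chr10:59323047-59323196, plus strand: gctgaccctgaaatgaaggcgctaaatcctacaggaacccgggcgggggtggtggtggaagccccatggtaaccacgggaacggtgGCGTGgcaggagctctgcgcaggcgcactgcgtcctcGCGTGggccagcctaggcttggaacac
P4ha2, chr11:54100774-54100923, plus strand: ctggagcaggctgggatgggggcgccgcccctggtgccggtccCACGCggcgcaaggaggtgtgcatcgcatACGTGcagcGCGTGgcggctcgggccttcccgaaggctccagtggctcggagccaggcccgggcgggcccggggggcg
Bnip3, chr7:138909507-138909656, minus strand: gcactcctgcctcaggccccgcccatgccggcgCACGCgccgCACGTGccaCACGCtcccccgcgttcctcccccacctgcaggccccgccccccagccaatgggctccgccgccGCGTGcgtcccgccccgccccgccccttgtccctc
Egln1, chr8:124949255-124949404, minus strand: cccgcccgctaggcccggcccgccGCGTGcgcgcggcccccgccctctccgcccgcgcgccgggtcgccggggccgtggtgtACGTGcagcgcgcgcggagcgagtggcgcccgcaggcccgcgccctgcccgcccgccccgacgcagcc

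The promoter table holds 9 of the 10 members, and the promoter of Ndrg1 was not analysed here. Within 250 bases upstream of the listed start, 8 of these 9 genes had at least 1 core element, 7 had ACGTG and 6 had GCGTG. The windows of Hif1a and Ankrd37 lay inside the gene itself, as did the only ACGTG of P4ha1. Over all 32841 promoters of the table, 38.6% had either element in a window of that length, 16.6% had ACGTG and 28.2% had GCGTG. That share counts every promoter of a gene, while the members were counted with 1 each. Bnip3 had 5 matches, of which 2 are the 2 strands of 1 palindrome, P4ha1 and P4ha2 had 3 each and Egln1 had 2. Vegfa had none in the window at its outermost start. Members with and without a changed signal thus both carried the letters, and a match is a description of the sequence, not of binding.

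The comparison asks which genes of this response differed in the hippocampus of grown male offspring according to the age of the mother. Of the 10 genes, each read by its brightest probe, 3 were higher in the older-mother pools (P4ha1, P4ha2 and Ndrg1), 2 were lower (Ankrd37 and Adm), and 5 did not pass the test (Hif1a, Vegfa, Egln1, Egln3 and Bnip3). The test is limma's on the 3 log2 ratios of older over young, with Benjamini-Hochberg adjustment over 27631 probes and a threshold of 0.05. Over all 19595 named genes read the same way, 7.78% were called higher and 11.6% lower. By probe, 4 of the 16 were higher, 3 lower and 9 not called, beside 7.92% called higher and 10.7% called lower among all probes tested. The median log2 ratio of the 10 genes was 0.04 and that of all genes -0.02, and the median of the sizes without sign was 0.20 for the members and 0.11 for all genes. On arrays 1, 2 and 3 the median of the members was -0.04, 0.10 and 0.09. The genes with a higher signal thus stood further from 0 than those with a lower one, and the HIF subunit itself was among those that did not pass.

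**Figure D1:**
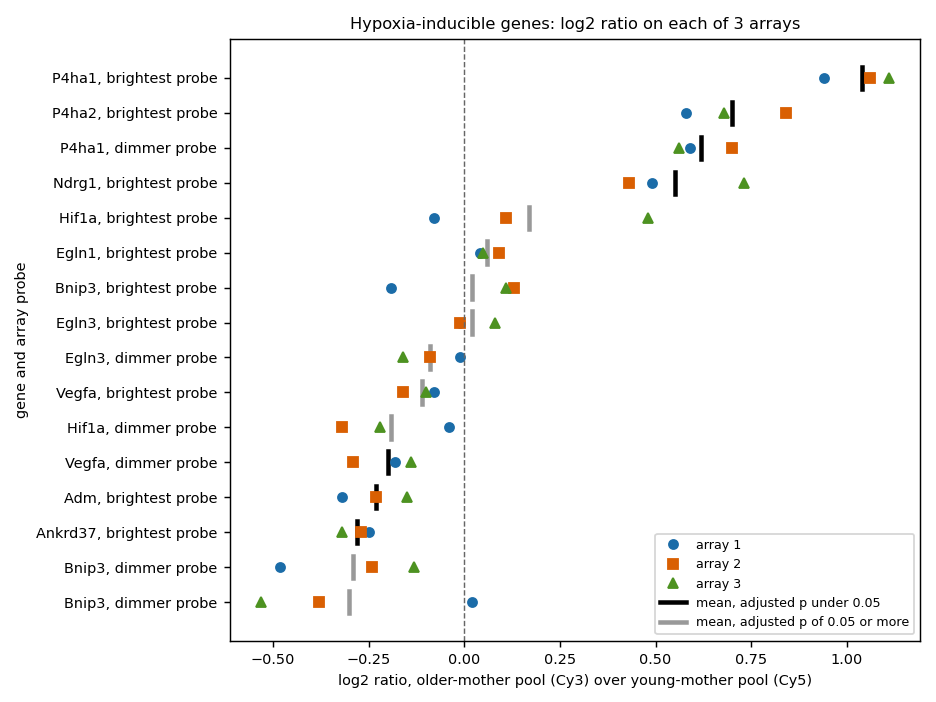
Log2 ratio of the older-mother pool (Cy3) over the young-mother pool (Cy5) for the 16 probes of the 10 genes, with 1 point per array and a bar at the mean of the 3 arrays, black where the adjusted p was under 0.05. Both P4ha1 probes, P4ha2 and Ndrg1 lie at 0.43 or above on every array, while Hif1a, Bnip3 and Egln3 have points on both sides of 0.

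P4ha1 and P4ha2 encode the catalytic subunits of collagen prolyl 4-hydroxylase, the enzyme of the endoplasmic reticulum that hydroxylates proline so that the collagen triple helix holds. The brighter P4ha1 probe read 9.95, 10.15 and 10.27 in the older-mother pools of arrays 1, 2 and 3, as log2 intensity, and 9.0, 9.10 and 9.16 in the young-mother pools. All older-mother pools lay above all young-mother pools. The log2 ratios were 0.94, 1.06 and 1.11, with a mean of 1.04 ± 0.08 (SD, n = 3 arrays), which is 2.05-fold higher in the older-mother pools (limma adjusted p = 0.0113). That change exceeded those of 99.8% of the probes tested. The second P4ha1 probe, 613 bases away, read 8.05, 8.11 and 8.15 against 7.45, 7.41 and 7.59 and was 1.53-fold higher, with a log2 ratio of 0.62 ± 0.07 (SD, n = 3 arrays; limma adjusted p = 0.0129). The 2 probes pointed the same way with different sizes, the brighter one exceeding the other by 0.35, 0.36 and 0.55 in log2 ratio.

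P4ha2 read 9.88, 10.11 and 10.15 in the older-mother pools and 9.30, 9.27 and 9.47 in the young-mother pools, as log2 intensity. The groups did not overlap. The log2 ratios of 0.58, 0.84 and 0.68 gave a mean of 0.70 ± 0.13 (SD, n = 3 arrays) and a 1.62-fold higher signal (limma adjusted p = 0.0132). Without array 3 the mean was 0.71 but the adjusted p was 0.0515, the highest of 12 alternatives that ranged from 0.00418. P4ha1 stayed called in all 12 alternatives, with adjusted p from 9.06e-05 to 0.0456. Its second probe was called in 10 of 11 and lost its call without array 3 (limma adjusted p = 0.0515). When each array was only centred on its median in place of loess, P4ha1 was at 0.54 and P4ha2 at 0.19, which is 0.87 and 0.52 above the median of all probes.

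Of 14 other measured genes of collagen proline and lysine hydroxylation and cross-linking, 1 was higher, 2 were lower and 11 did not pass. Plod2, a lysyl hydroxylase, was higher with a log2 ratio of 0.25 ± 0.05 (SD, n = 3). Crtap, which helps to modify single prolines, was lower at -0.43 ± 0.11 and Loxl1, a cross-linking oxidase, at -0.25 ± 0.12. Loxl1 was called on 1 of its 2 probes and not in the mean over them. The third catalytic subunit, P4ha3, had a log2 ratio of -0.13 ± 0.04 (limma adjusted p = 0.0854), and the β subunit P4hb, shared by all forms of the enzyme, one of 0.10 ± 0.04 (adjusted p = 0.161). Without array 2, and likewise without array 3, none of the 14 genes was called by limma in either direction, while 1 higher and 2 lower without array 2, and 2 higher and 3 lower without array 3, had an unadjusted p under 0.05. Without array 1, 0 were higher (2 at an unadjusted p under 0.05) and 2 lower.

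Ndrg1, a stress-responsive protein of the N-myc downstream-regulated family that is known from myelinating cells, read 12.53, 12.53 and 12.65 in the older-mother pools and 12.04, 12.09 and 11.92 in the young-mother pools. All older-mother pools again lay above all young-mother pools. Its log2 ratios were 0.49, 0.43 and 0.73, with a mean of 0.55 ± 0.16 (SD, n = 3 arrays), a 1.46-fold higher signal (limma adjusted p = 0.0163). The call was lost without array 3 (0.46, adjusted p = 0.0515). With each array only centred on its median instead of corrected by loess, Ndrg1 turned to -0.10 (adjusted p = 0.157), which was still 0.23 above the median of all probes, since that scaling moved the median of all probes to -0.33. Over the 12 alternatives its adjusted p ranged from 0.00577 to 0.157. The 3 other NDRG genes did not pass by limma, and 2 of them had an unadjusted p under 0.05. Their log2 ratios were -0.14 ± 0.03 for Ndrg3, -0.19 ± 0.14 for Ndrg4 and 0.12 ± 0.15 for Ndrg2 (-0.64 when centred on the median).

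Markers of oligodendrocytes, the myelinating cells of the brain, were measured beside Ndrg1. Of 10 such markers 1 was higher (Ermn, 0.36) and none lower by limma (2 higher and 1 lower at an unadjusted p under 0.05), and their median log2 ratio was 0.23, -0.16 and 0.08 on arrays 1, 2 and 3. Their summed intensity was 77900 to 104000 in the older-mother pools and 76700 to 82400 in the young-mother pools, and all 10 were above background. Of the 2 Ermn probes 1 was called. Ndrg1 was higher by 0.43 on array 2, where the markers' median was below 0. The part of these cells in the Ndrg1 result was not tested.

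**Figure D2:**
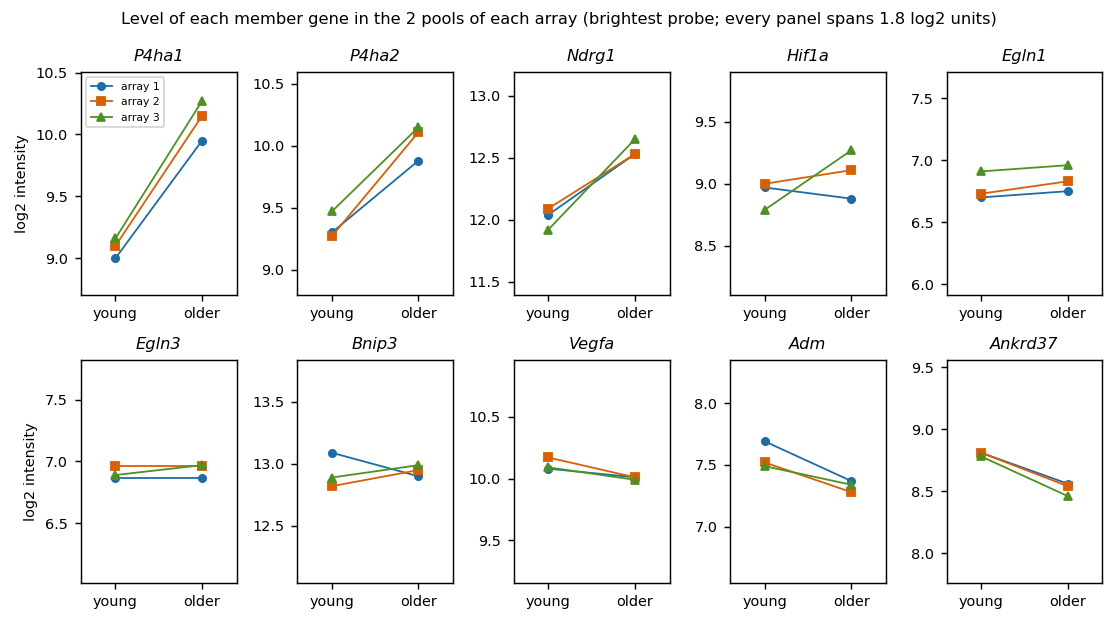
Log2 intensity of the brightest probe of each of the 10 genes in the young-mother (Cy5) and older-mother (Cy3) pool of each array, with a line joining the pools of 1 array. Lines rise on all arrays for P4ha1, P4ha2, Ndrg1 and, slightly, Egln1, and fall on all arrays for Vegfa, Adm and Ankrd37. They run both ways for Hif1a, Bnip3 and, slightly, Egln3.

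Ankrd37 is a small ankyrin repeat protein whose gene is known as a direct HIF-1 target. It read 8.56, 8.54 and 8.46 in the older-mother pools and 8.81, 8.81 and 8.78 in the young-mother pools, as log2 intensity. The groups did not overlap, and the older-mother pools were the lower ones. The log2 ratios were -0.25, -0.27 and -0.32, the mean was -0.28 ± 0.04 (SD, n = 3 arrays), and the signal was 1.21-fold higher in the young-mother pools (limma adjusted p = 0.0209). The call was lost with Agilent's processed signals (adjusted p = 0.0595), without array 2 (0.0982) and without array 3 (0.0682), in a range from 5.48e-05 over 12 alternatives. The direction held in all 12.

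Adm encodes adrenomedullin, a secreted peptide that widens blood vessels. Its probe read 7.37, 7.28 and 7.34 in the older-mother pools against 7.69, 7.52 and 7.49 in the young-mother pools. The groups did not overlap, by a narrow gap. The log2 ratios of -0.32, -0.23 and -0.15 averaged -0.23 ± 0.09 (SD, n = 3 arrays), a 1.18-fold higher signal in the young-mother pools (limma adjusted p = 0.0378). The call was lost with the processed signals (adjusted p = 0.294), with the deposited table (0.0577) and without array 1, 2 or 3 (0.0831, 0.161 and 0.0677), in a range from 0.00385. Centred on the median, Adm was at -0.27, which is 0.06 above the median of all probes under that scaling.

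The partners of adrenomedullin gave little to set beside it. Of 10 genes of its ligand and receptor list 5 were above background, and besides Adm none of the other 4 was called by limma, with 1 lower at an unadjusted p under 0.05. Ramp3, a receptor partner, had a log2 ratio of -0.20 ± 0.16, the related peptide gene Calca one of -0.10 ± 0.03, and Ramp1, another receptor partner, one of 0.09 ± 0.14 (-0.52 when centred on the median). The receptor gene Calcrl was not above background.

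Vegfa, the main growth factor for blood vessels, was read by 2 probes that lie 7989 bases apart. The brighter read 10.01, 10.01 and 9.99 in the older-mother pools and 10.08, 10.17 and 10.09 in the young-mother pools. The groups did not overlap, yet the gap was small and the test was not passed, with a log2 ratio of -0.11 ± 0.04 (SD, n = 3 arrays; 95% interval -0.22 to 0.00; limma adjusted p = 0.129). The dimmer probe read 7.56, 7.45 and 7.44 against 7.74, 7.74 and 7.58. All older-mother pools lay below all young-mother pools. The log2 ratio was -0.20 ± 0.08 (SD, n = 3 arrays; limma adjusted p = 0.0469), close to the threshold. That call was lost in 8 of 11 alternatives, in a range of adjusted p from 0.00209 to 0.271, among them the processed signals, the deposited table and each array left out. Both probes pointed the same way on all arrays.

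Of 13 other VEGF ligands and receptors 1 was higher, 2 were lower and 10 did not pass. Flt1, a VEGF receptor and decoy, had a log2 ratio of 0.38 ± 0.07 (SD, n = 3), but of -0.24 when centred on the median, where it was 0.09 above all probes. Of its 3 probes 1 was called, and the mean over them was not. Tie1, a receptor of endothelial cells, was lower at -0.31 ± 0.09 and the ligand gene Pgf at -0.19 ± 0.03. These 2 lay 0.09 and 0.01 above the median of all probes when arrays were centred on the median. Without array 1, 1 of the 13 was higher and 1 lower, without array 2 it was 1 higher and none lower by limma (2 at an unadjusted p under 0.05), and without array 3 none was called (1 higher and 4 lower at an unadjusted p under 0.05).

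Markers of vessel cells were measured beside Adm and Vegfa. Of 10 endothelial markers, Tie1 among them, 5 were lower and none higher by limma (1 at an unadjusted p under 0.05), with a median log2 ratio of -0.24 and a summed intensity of 14800 to 17400 in the older-mother pools and 16700 to 19100 in the young-mother pools. Of 8 markers of pericytes and vascular smooth muscle 4 were lower and none higher (2 at an unadjusted p under 0.05), with a median of -0.17 and a summed intensity of 7180 to 8860 against 8780 to 10700. All 18 markers were above background. Without array 1 the lower counts were 4 and 3, with 1 marker of each list higher (Esam and Kcnj8). Without array 2 the lower counts were 1 and 0 (5 and 4 at an unadjusted p under 0.05), and without array 3 both were 0 (7 and 5). Without array 1, 2 or 3 the medians lay between -0.30 and -0.13. The part of these cells in the results on Adm and Vegfa was not tested.

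Among the members of the sensing step, Egln1, Egln3 and Hif1a did not pass the test. Egln1 read 6.75, 6.83 and 6.96 in the older-mother pools and 6.70, 6.73 and 6.91 in the young-mother pools. The groups overlapped, although the older-mother pool was slightly higher on every array. The log2 ratio was 0.06 ± 0.03 (SD, n = 3 arrays; 95% interval -0.05 to 0.17; limma adjusted p = 0.345). For Egln3 the brighter probe read 6.87, 6.96 and 6.97 against 6.87, 6.96 and 6.89, so the groups overlapped. Its log2 ratio was 0.02 ± 0.05 (95% interval -0.09 to 0.13; limma adjusted p = 0.761). The second Egln3 probe was not well above background in any older-mother pool, read 6.37, 6.40 and 6.35 against 6.38, 6.49 and 6.51, and gets no fold. When arrays were centred on the median both genes were called higher, at 0.35 for Egln1 and 0.24 for Egln3, which is 0.68 and 0.58 above all probes.

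Hif1a varied more between arrays than any other member read by its brightest probe. That probe read 8.88, 9.11 and 9.27 in the older-mother pools and 8.97, 9.0 and 8.79 in the young-mother pools. The older-mother pool was lower on array 1 and higher on arrays 2 and 3, and the groups overlapped. The log2 ratios were -0.08, 0.11 and 0.48, with a mean of 0.17 ± 0.29 (SD, n = 3 arrays; 95% interval -0.10 to 0.44; limma adjusted p = 0.3). The size of the difference was smaller than the spread between arrays. The second Hif1a probe lies 13304 bases away, was not well above background in any older-mother pool and read 6.48, 6.23 and 6.34 against 6.52, 6.54 and 6.56. It passed the filter only through the young-mother dye, so it gets no fold and its direction is not read.

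Of 16 further genes of HIF subunits and oxygen sensing 3 were higher, 2 lower and 11 not called. Hif3a, a HIF subunit that can dampen the others, had a log2 ratio of 0.51 ± 0.16 (SD, n = 3; 1.43-fold) and was higher on all arrays, though only 1 of its 3 probes was called. It was at 0.10 when centred on the median (0.44 above all probes), and its call was lost there and in the mean over its probes. Siah2, a ubiquitin ligase that removes prolyl hydroxylases, had 0.34 ± 0.04 (-0.14 when centred on the median, 0.19 above all probes). Egln2, the third prolyl hydroxylase, had 0.23 ± 0.01 (-0.47 when centred on the median, 0.14 below all probes). Only 1 of its 2 probes was called, and the mean over them was not. Rbx1, of the ligase that breaks down HIF-1α, was lower at -0.22 ± 0.07 and Arnt2, the partner subunit of neurons, at -0.24 ± 0.10. Of the 3 Rbx1 probes 1 was called, and the mean over them was not. Epas1, which encodes HIF-2α, and Vhl did not pass, at 0.05 ± 0.04 and 0.09 ± 0.03. Without array 1 the list had 3 higher and 0 lower (3 lower at an unadjusted p under 0.05). Those 3 were Hif3a, Siah2 and Ep300, while Egln2 lost its call. Without array 2 the list had 1 (Hif3a) and 0 (4 higher and 2 lower unadjusted), and without array 3 limma called none (4 and 2 unadjusted).

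Bnip3 encodes a protein of the outer mitochondrial membrane that recruits the machinery of mitophagy, the removal of mitochondria. It was read by 3 probes within 224 bases, and they did not give the same picture. The brightest read 12.90, 12.95 and 12.99 in the older-mother pools and 13.09, 12.82 and 12.89 in the young-mother pools, and the groups overlapped. Its log2 ratios of -0.19, 0.13 and 0.11 averaged 0.02 ± 0.18 (SD, n = 3 arrays; 95% interval -0.17 to 0.20; limma adjusted p = 0.885). The second read 12.03, 12.06 and 12.13 against 12.50, 12.30 and 12.27, without overlap, and had a log2 ratio of -0.29 ± 0.17 (adjusted p = 0.0528). The third read 8.72, 8.71 and 8.50 against 8.70, 9.10 and 9.04, with overlap, and had a log2 ratio of -0.30 ± 0.28 (adjusted p = 0.107). The mean over the 3 probes was -0.19 and was called lower (adjusted p = 0.0364), while none of the 3 probes passed on its own. Over the 12 alternatives its adjusted p ranged from 0.000143 to 0.98.

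Of 15 other mitophagy receptors and adaptors 3 were lower, none was higher by limma (1 at an unadjusted p under 0.05) and 12 did not pass. Map1lc3a, which coats autophagosomes, was lower by log2 ratio at -0.33 ± 0.14 (SD over 3 arrays), as was Fkbp8, a mitophagy receptor, at -0.25 ± 0.04. Of the 2 Fkbp8 probes 1 was called. Bnip3l, the close relative of Bnip3, had -0.06 ± 0.07 by its brightest probe (limma adjusted p = 0.433), yet 2 of its 4 probes were called higher. Without array 1, 1 was higher (Becn1) and 3 were lower, with Pink1 among them and Fkbp8 no longer called. Without array 2 it was 0 higher (1 at an unadjusted p under 0.05) and 1 lower, and without array 3 limma called none (0 higher and 3 lower at an unadjusted p under 0.05).

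The glycolytic genes that HIF-1 is known to raise gave no higher call. Of 22 measured genes 4 were lower (Eno1, Gapdh, Slc16a3 and Aldoa), 18 did not pass, and none was higher by limma or at an unadjusted p under 0.05. Among all genes 7.78% were called higher and 11.6% lower. The median log2 ratio was -0.10, beside -0.02 over all genes. Eno1, a glycolytic enzyme, had -0.30 ± 0.01 (SD, n = 3), Gapdh -0.23 ± 0.04 with 3 of its 8 probes called, and the lactate exporter Slc16a3 -0.23 ± 0.04. In the mean over a gene's probes Gapdh lost its call and Hk1 was called lower, with 2 of its 3 probes called lower. Aldoa had -0.22 ± 0.07, but turned upward with the processed signals. The glucose transporter Slc2a1 (0.12 ± 0.10), Ldha (-0.08 ± 0.06) and Pdk1 (-0.17 ± 0.05) did not pass. Without array 1, 1 of the 22 was lower, and without array 2 or array 3 none was called by limma (5 and 6 lower at an unadjusted p under 0.05). With the processed signals none was called either, and 4 were lower at an unadjusted p under 0.05.

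Among 35 further genes known to be induced by hypoxia 6 were higher, 4 lower and 25 not called. Maff, a small transcription factor, had log2 ratios of 1.02, 1.09 and 0.82 and a mean of 0.98 ± 0.14 (SD, n = 3; 1.97-fold), and stayed called in all 12 alternatives. Ddit4, a brake on mTOR that glucocorticoids also induce, had 0.72 ± 0.11 (0.00 when centred on the median, 0.33 above all probes). Also higher were Ppp1r3c, a glycogen regulator (0.62 ± 0.11), the histone demethylase gene Kdm3a (0.29 ± 0.04) and Tgfb3 (0.23 ± 0.04), of which Kdm3a and Tgfb3 turned to -0.27 and -0.26 when centred on the median, 0.06 and 0.07 above all probes. Ppp1r3c was at 0.02 under that scaling, 0.35 above all probes, and lost its call. The lower genes were Tfrc, the transferrin receptor (-0.47 ± 0.25), the glycogen branching enzyme Gbe1 (-0.37 ± 0.07), the endothelial synthase gene Nos3 (-0.34 ± 0.04) and Insig2 (-0.26 ± 0.03). Only 1 probe was called of the 3 of Tfrc, the 2 of Nos3 and the 2 of Insig2. Insig2 lost its call in the mean over its probes. Car9, which encodes a carbonic anhydrase known as a marker of hypoxia, had 0.10 ± 0.10 (limma adjusted p = 0.228). Without array 2, 4 were higher and 0 lower (6 lower at an unadjusted p under 0.05), and without array 3 only Maff was called (8 higher and 6 lower at an unadjusted p under 0.05).

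**Figure D3:**
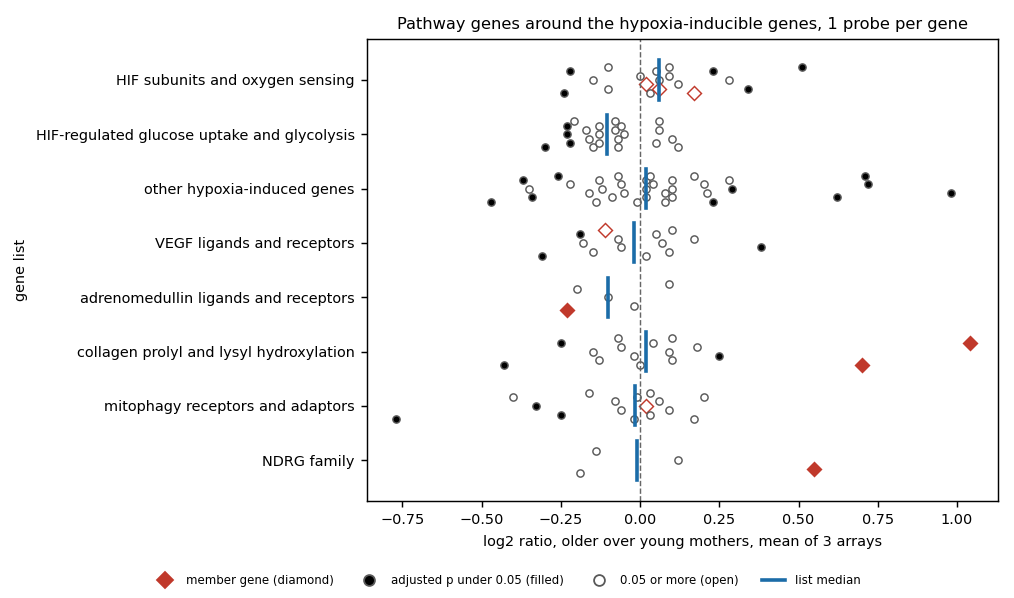
Mean log2 ratio of older over young for the measured genes of 8 lists around the hypoxia-inducible genes, with 1 point per gene (brightest probe), members as red diamonds, filled symbols for an adjusted p under 0.05 and a blue bar at the median of the list. The glycolysis list lies mostly left of 0 with no filled point on the right, and P4ha1 and P4ha2 have the highest ratios of the collagen hydroxylation list.

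Together the 8 lists held 121 distinct measured genes besides the members, with a median log2 ratio of -0.02. Of these 11 were higher, 17 lower and 93 not called, beside 7.78% called higher and 11.6% called lower of all genes. Without array 1 the counts were 12 and 10 (5.12% and 7.5% of all genes), and without array 2 they were 6 and 1 (1.3% and 1.55%). Without array 3 they were 1 and 0 (0.143% and 0% of all genes), with 24 lower in the lists at an unadjusted limma p under 0.05. With the processed signals the counts were 10 and 6 (3.89% and 5.41% of all genes). When arrays were centred on the median they were 10 and 98, beside 18.8% and 66.1% of all genes called higher and lower under that scaling.

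The calls among the members also thinned when an array was left out. P4ha1, P4ha2 and Ndrg1 were called higher without array 1 and without array 2, where 5.12% and 1.3% of all genes were, and P4ha1 alone without array 3, where 0.143% were. Ankrd37 alone was called lower without array 1, beside 7.5% of all genes. No member was called lower without array 2 (1.55% of all genes) or without array 3 (0% of all genes), with 2 at an unadjusted p under 0.05 each time. When arrays were centred on the median, 4 members were called higher (P4ha1, P4ha2, Egln1 and Egln3) and 5 lower (Hif1a, Vegfa, Adm, Bnip3 and Ankrd37). Hif1a at -0.26 and Adm then lay above the median of all probes, by 0.07 and 0.06, and Vegfa at -0.64 lay 0.31 below it. In the deposited table P4ha1 (0.95, 1.04 and 1.15 on arrays 1, 2 and 3), P4ha2 (0.59, 0.82 and 0.66), Ndrg1 (0.50, 0.37 and 0.77) and Ankrd37 (-0.23, -0.26 and -0.34) were called and Adm (-0.32, -0.27 and -0.09) was not.

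**Figure D4:**
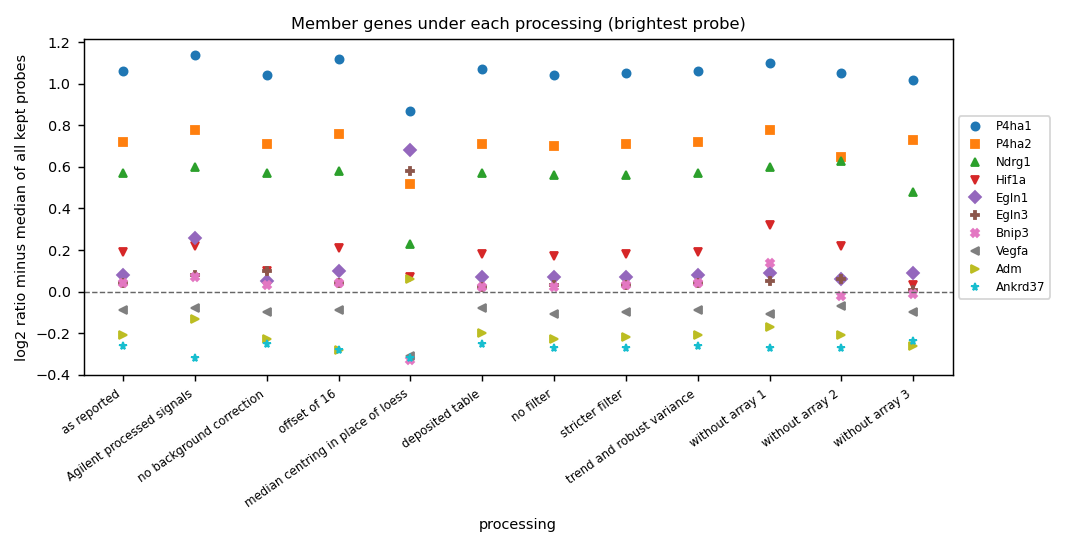
Log2 ratio of the brightest probe of each member gene minus the median of all kept probes, as reported and under 11 alternatives. P4ha1, P4ha2 and Ndrg1 lie above 0 and Ankrd37 below 0 throughout, while Egln1, Egln3, Bnip3, Adm and Ndrg1 move most when arrays are centred on the median in place of loess.

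Of the whole set of arrays, the median spot signal over local background was 58.0 to 62.3 intensity units in Cy3 and 153 to 165 in Cy5, and 64.6% to 66.7% and 71.0% to 74.9% of spots were well above background. No spot of a member probe was saturated. The number of arrays limits the precision. All 10 markers of hippocampal excitatory neurons were above background, of which 3 were lower (Neurod6 at -0.34, Dkk3 at -0.25 and Nrgn at -0.25) and 1 higher (Neurod2 at 0.19), with a median of -0.08. Without array 1, 1 was higher (the marker Wfs1, not Neurod2) and 0 lower (4 at an unadjusted p under 0.05). Without array 2 or array 3 none was called (3 and 4 lower unadjusted). Markers of the choroid plexus, which lies against the hippocampus, differed most among the marker lists, with 3 of 12 lower (11 at an unadjusted p under 0.05; 0 called without array 1 or array 3), a median log2 ratio of -0.82, -1.97 and -0.33 on arrays 1, 2 and 3, and a summed intensity of 9960 to 70300 in the older-mother and 80100 to 117000 in the young-mother pools. Of 10 leptomeningeal fibroblast markers 5 were lower, with a median of -0.41. Markers of astrocytes (2 of 8 higher), microglia (1 higher and 1 lower of 8), interneurons (1 of 8 lower) and red blood cells (1 of 6 lower) had medians between -0.13 and 0.04. Without array 2 the choroid plexus median was -0.56, with 6 of 12 lower, and P4ha1, P4ha2 and Ndrg1 stayed called. The part of this tissue in the members' results was not tested.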

How the data were processed

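The 3 arrays have probes of 60 bases and share 1 slide and 1 scan, which leaves no batch to model. Per the file headers, Feature Extraction 10.10.1.1 read them with a design on the build mm9 (NCBI37); mean spot and background signals are raw intensity values, the log ratio is log10 of Cy5 over Cy3, and quality flags are other values of 0 or 1. Values in the deposited table are on a log2 scale, Cy3 over Cy5, with column medians of about -0.005. Normexp (offset 50) and loess on median signals reproduced it to within 5e-10, though the authors' steps are not given in the sources used here.

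For the values above, mean signals went through normexp (offset 50) and loess (span 0.3, weight 0 for control and outlier spots) in limma 3.58.1 under R 4.3.3, with jsonlite 2.0.0, and repeated spots (399 probes) were averaged. A probe was kept, as 27631 of 39429 were, when all arrays had it well above background in one of the dyes. The limma fit (lmFit, eBayes) had an intercept only, with a two-sided test, 2 residual and 3.42 prior degrees of freedom, and Benjamini-Hochberg adjustment. Pool levels are Aquantile-normalized channel intensities, and summed intensities add these on the linear scale. Symbols were updated from RefSeq (GRCm38.p6) for 28025 probes with a matching accession.

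The members and lists were chosen with earlier results of these data known. Every member was named, with up to 3 genes of smallest p per pathway list. Other called genes, and Epas1, Vhl, P4ha3, P4hb, Bnip3l, Slc2a1, Ldha, Pdk1, Car9, Calcrl and the named markers, were named after their values were seen. A few items are not reported here. The steps were tested on simulated data. Alternatives were the processed signals, uncorrected background, an offset of 16, centring on the median, the deposited table, no or a stricter filter (both dyes), a robust variance trend, the mean of a gene's probes, and each array left out.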

Additional observations from a re-analysis of the deposited data

How the results depend on the processing

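Under the 12 alternatives P4ha1 kept its direction and stayed called in 12, P4ha2 in 11, Ndrg1 in 10, Ankrd37 in 9 and Adm in 7. Vegfa and Egln1 kept their direction and stayed not called in 11, Hif1a in 10, Egln3 in 8 and Bnip3 in 7. Agilent's processed signals gave 1169 probes higher, 1452 lower and 0 members lower (1 at an unadjusted p under 0.05, by limma), in place of 2189, 2946 and 2. The deposited table gave 1 member lower. Median centring gave 5997 probes higher, 17006 lower and 5 members lower, with the median of all probes at -0.33, and turned Hif1a to -0.256, Bnip3 to -0.666 and Ndrg1 to -0.101. The deposited table turned Egln3 to -0.005 and Bnip3 to -0.003, and the mean over a gene's probes turned Hif1a to -0.012, Egln3 to -0.033 and Bnip3 to -0.189. In each of these genes that mean takes in dimmer probes with lower ratios. Those of Hif1a and Egln3 were not well above background in any older-mother pool. Leaving out 1 array gave 29 to 1459 probes higher, 0 to 1906 lower (8423 at an unadjusted p under 0.05 in either direction without array 3), 1 to 3 members higher and 0 to 1 lower. It moved the log2 ratio of Egln3 between -0.007 and 0.035 and of Bnip3 between -0.04 and 0.119. Apart from the averaging over probes, the cause of these changes was not tested. The log2 ratio within an array already pairs the pools of that array, and the labels give no other pairing. The weaker Cy3 channel limits the dimmer probes of Hif1a and Egln3. The Egln1 probe and the brighter Egln3 probe were dim, but well above background in both dyes.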
